A study of Mus musculus with 20 samples.

Results

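The lung arrays of a mouse miRNA study were taken on their own: all 4 lung arrays among its 20, read over all 200 probes of the chip after background correction and scaling among these 4 arrays. The groups were klotho(-/-) Lung, with arrays numbered 1 and 2, and wild-type Lung, also numbered 1 and 2. All mice were male, 5 weeks old, the labels name no treatment, and the wild-type mice were littermates of the klotho(-/-) mice. The other 16 arrays held liver, kidney, heart and spleen of the same 2 genotypes and enter the lung results by the estimate of spread and by the comparison with other tissues. By the study's description each number stands for an individual mouse, so every lung value rests on 2 mice per genotype. The p-values measure only the spread between arrays, pooled over all 20. Whether 1 mouse gave several tissues is not stated, and the main fit took the arrays as independent. The chip carries no probe for klotho mRNA, so the genotype labels were not checked by the targeted gene.

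The klotho gene encodes a membrane protein that acts with fibroblast growth factor 23 in phosphate handling, and mice that lack it age early, with widening of the alveolar airspaces among the known lung changes. A miRNA guides the silencing complex to messenger RNAs through its seed, the bases near its 5′ end, so miRNAs that share a seed are expected to share many targets. In lung, miR-126 is made in endothelium, miR-34b and miR-34c in ciliated airway cells, the miR-200 family in epithelium, miR-143 and miR-145 in smooth muscle, and the miR-29 family restrains collagens and other matrix genes.

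The sequences of the miRNAs that passed the test in lung, with close relatives, are shown because their shared seeds show which of them belong together. They are mature sequences from RefSeq (GRCm38.p6), 5′ to 3′, with bases 2 to 8, the seed, in capitals. miR-126-5p, which also passed, is given by name, with the opposite arm of its hairpin, miR-126-3p, shown.
miR-29a: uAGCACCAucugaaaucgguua
miR-29b: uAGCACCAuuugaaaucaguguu
miR-29c: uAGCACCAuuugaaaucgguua
miR-19b: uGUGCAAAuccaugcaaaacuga
miR-30a-3p: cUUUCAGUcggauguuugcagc
miR-126-3p: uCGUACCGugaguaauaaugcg
miR-146: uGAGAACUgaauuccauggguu
miR-146b: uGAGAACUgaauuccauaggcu
miR-103: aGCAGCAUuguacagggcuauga
miR-181a: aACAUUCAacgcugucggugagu
miR-181b: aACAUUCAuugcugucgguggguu

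The 3 miR-29 members shared 1 seed, as did miR-146 with miR-146b and miR-181a with miR-181b. Over the whole sequence, miR-29a and miR-29c differed at 1 of 22 positions, miR-29b and miR-29c at 3 and miR-29a and miR-29b at 4. miR-146 and miR-146b differed at 2 of 22 positions, and miR-181a and miR-181b at 3 of 23. How well the probes tell such relatives apart was not tested. The miR-29 genes lie in 2 clusters. Mir29a (chr6:31062673-31062694) lies 330 bases from Mir29b-1 (chr6:31063025-31063047), both on the minus strand, and Mir29b-2 (chr1:195037091-195037113) lies 486 bases from Mir29c (chr1:195037600-195037621), both on the plus strand. The probe for miR-29b therefore reads both clusters together. Mir146 (chr11:43374435-43374456) and Mir146b (chr19:46342790-46342811) lie on different chromosomes. Both copies of miR-181a have a miR-181b gene beside them, 159 bases away on chromosome 1 and 1081 bases away on chromosome 2. miR-19b comes from Mir19b-1 (chr14:115044358-115044380) and Mir19b-2 (chrX:52741991-52742013), and miR-103 from Mir103-2 (chr2:131288103-131288125) and Mir103-1 (chr11:35782447-35782469). miR-30a-3p (chr1:23272315-23272336) is the arm of the Mir30a hairpin that is usually discarded, 19 bases from miR-30a-5p.

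The 4 arrays differed in brightness. Background-subtracted signals, in arbitrary units of fluorescence, summed to 57568 and 49743 on klotho(-/-) Lung 1 and 2, against 51604 and 25953 on wild-type Lung 1 and 2. wild-type Lung 2 was thus the dim array, while 113 to 116 probes reached a signal of 10 on every array. The ratio of mean sums, klotho(-/-) over wild-type, was 1.38, and the unscaled log2 differences of the 113 tested probes had a median of 0.34. All differences below are therefore relative to the other probes of the same array, after quantile normalization. Between the 2 arrays of a genotype the normalized values correlated at r = 0.995 in klotho(-/-) and 0.993 in wild-type, against 0.987 to 0.990 between genotypes (113 probes, which share arrays and are not independent, so no p is given). The median absolute log2 difference was 0.0649 within klotho(-/-) and 0.0892 within wild-type, and 0.103 to 0.125 between arrays of different genotype.

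The endothelial miR-126-3p and the ciliated airway miR-34b were brighter in lung than in any other tissue. miR-126-3p had signals of 1494 to 3435 over the lung arrays and at most 749 in any other tissue, and miR-34b had 118 to 237 against at most 17 elsewhere. In the miR-200 family, miR-200a and miR-200b were highest in kidney and miR-200c and miR-141 in lung. The leukocyte miR-142-3p was highest in spleen, at up to 503 against 200 in lung. miR-122a of hepatocytes stood at 4 to 10 and miR-206 of skeletal muscle at 2 to 6, near the floor of 2 to 3. The other striated muscle probes were above it, at 65 to 235 (miR-1), 40 to 160 (miR-133a), 37 to 137 (miR-133b) and 25 to 56 (miR-208). In whole lung, fewer cells of a type and less of a miRNA per cell cannot be told apart.

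Of 113 probes with a mean lung signal of at least 10, 9 (7.96%) were called by limma at an adjusted p under 0.05, with 5 (4.42%) higher and 4 (3.54%) lower in klotho(-/-) lung. The 5 were miR-29b, miR-29a, miR-19b, miR-126-5p and miR-30a-3p, and the 4 were miR-103, miR-146b, miR-146 and miR-181a. Differences were small in general, with quartiles of -0.10 and 0.09 on the log2 scale and 3 probes beyond 0.5 in size, which were the 3 members of the miR-29 family. The largest was 0.75 for miR-29b and the lowest -0.48 for miR-1. After normalization the genotypes did not overlap for 46 of 113 probes (40.7%), among them all 9 called, so that non-overlap of 2 arrays against 2 was common here. An exact permutation test of 2 arrays against 2 cannot go below p = 0.333, and the calls rest on a spread pooled over the 5 tissues. For probes that are dim in other tissues, among them miR-126-5p, miR-30a-3p and the miR-146 pair, that spread includes arrays with little signal. The SE may then be too small for lung. With the lung arrays fitted alone miR-29b was the only call.

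**Figure D1:**
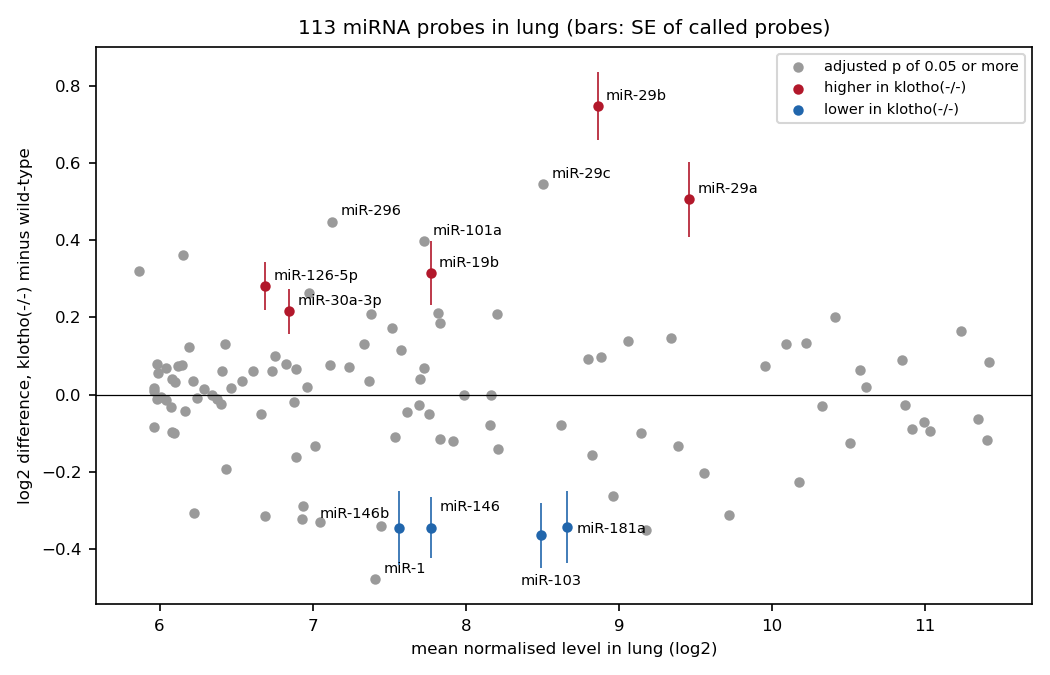
Each of the 113 points is a miRNA probe, with its mean normalised log2 level in lung on the horizontal axis and its log2 difference, klotho(-/-) minus wild-type, on the vertical axis, with red for the 5 called higher, blue for the 4 called lower, and bars for their SE. The miR-29 members lie at the top, at 0.51 to 0.75, and the calls on the lower side lie at -0.34 to -0.37.

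The split of calls into higher and lower depended on the scaling. Scaling each array to its median gave 16 higher and 2 lower, no scaling 2 higher and 0 lower, and quantile normalization over all 20 arrays 1 higher and 0 lower. Cyclic loess gave 5 higher and 3 lower, and the summed signal as the scale, tried after the data were seen, gave 4 and 4. Of the 9 calls, 6 were shared with median scaling, and 4 each with cyclic loess and with the summed signal. Leaving out klotho(-/-) Lung 1 gave 4 calls, klotho(-/-) Lung 2 gave 3 and wild-type Lung 1 gave 4, while without wild-type Lung 2 there were 3 higher and 5 lower.

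The miR-29 family stood out most. miR-29b, which represses several collagens, had signals of 791 and 567 in klotho(-/-) lung, against 332 and 150 in wild-type lung. The genotypes did not overlap, and the dimmer klotho(-/-) Lung 2 exceeded the brighter wild-type Lung 1. Its rank among the 200 probes, which no scaling changes, was 23 and 24 on the klotho(-/-) arrays and 34 and 34 on the wild-type arrays. As a share of the summed signal it took 1.37% and 1.14% in klotho(-/-) lung and 0.643% and 0.578% in wild-type lung. The log2 difference was 0.75 ± 0.09 (SE, n = 2 arrays per genotype, limma adjusted p = 0.000205), and the ratio of normalized signals was 1.79. It was called under all 17 alternative limma settings, at 0.64 to 1.38, while the methods' t-test called 0 of the probes after Benjamini-Hochberg adjustment and 8 before it.

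miR-29a, with the same seed, had signals of 978 and 899 in klotho(-/-) lung, against 575 and 266 in wild-type lung. The genotypes did not overlap, and its ranks were 20 and 19 against 24 and 24. Its log2 rise was 0.51 ± 0.10 (SE, n = 2 arrays per genotype, limma adjusted p = 0.0122), a ratio of normalized signals of 1.46. It was above 0 under all 17 alternatives and called under 12, and leaving out klotho(-/-) Lung 2 (0.46) or wild-type Lung 1 (0.49) ended the call.

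miR-29c, the partner of miR-29b on chromosome 1, took 0.872% and 0.903% of the summed signal in klotho(-/-) lung, against 0.496% and 0.512% in wild-type lung. Its genotypes did not overlap either, with ranks of 30 and 31 against 39 and 35. At 0.55 ± 0.21 its difference was close to that of miR-29a but its SE was larger, and it did not pass (limma adjusted p = 0.179). Median scaling (0.90), no scaling (1.15), cyclic loess (0.70) and the summed signal (0.70) each brought it past the threshold. Of the 3 members, 2 were thus called higher and 0 lower, where 4.42% of all tested probes were called higher and 3.54% lower. Their median was 0.55 against 0.01 over all tested probes. The study had drawn attention to this family on the same arrays, so its direction in this count has no independent support here. The median stayed above that of all tested probes under each scaling, at 0.41 to 1.15.

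**Figure D2:**
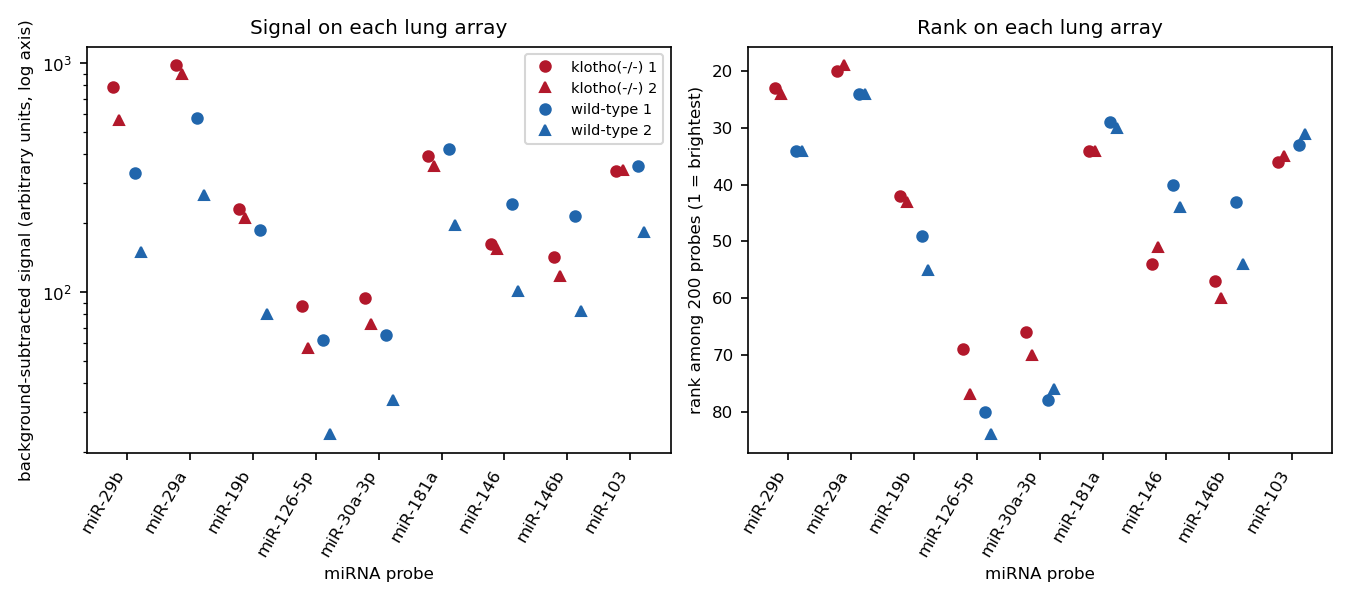
The left panel gives the background-subtracted signal (arbitrary units, log axis) and the right panel the rank among 200 probes (1 is the brightest) for each of the 9 called miRNAs, with red for klotho(-/-) and blue for wild-type, circles for array 1 and triangles for array 2. In signals, miR-146, miR-146b, miR-103 and miR-181a overlap between the genotypes with wild-type Lung 2 the lowest array, while in ranks the genotypes of all 9 are apart.

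miR-126 is processed from an intron of Egfl7, an endothelial gene, and both arms of its hairpin are on the chip. miR-126-5p had signals of 87 and 57 in klotho(-/-) lung, against 62 and 24 in wild-type lung. The signals overlapped, since klotho(-/-) Lung 2 lay under wild-type Lung 1, but the ranks of 69 and 77 against 80 and 84 did not. The log2 difference was 0.28 ± 0.06 (SE, n = 2 arrays per genotype, limma adjusted p = 0.0212). Outside lung its signals were at most 17, so the pooled spread behind this SE comes in large part from arrays near the floor. With the lung arrays fitted alone it was not called (limma adjusted p = 0.290). Leaving out klotho(-/-) Lung 1 (0.14) or wild-type Lung 2 (0.21) ended the call, which was kept under 8 of 17 alternatives. The other arm, miR-126-3p, was at 3435 and 2934 in klotho(-/-) lung, against 2765 and 1494 in wild-type lung. It was at or near the top of every array, ranked 1 and 1 against 3 and 2, where quantile normalization leaves little room for a difference. Its log2 difference was 0.08 ± 0.12 (adjusted p = 0.781), and its share of the summed signal was 5.97% and 5.90% in klotho(-/-) lung and 5.36% and 5.76% in wild-type lung. The 2 arms together, 1 called higher and 0 lower, had a median of 0.18. It was 0.31 with median scaling, 0.52 without scaling and 0.36 with quantile normalization over all 20 arrays. With cyclic loess and with the summed signal it was 0.13. In the same order miR-126-3p was at 0.32, 0.63, 0.56, 0.06 and 0.09. The medians of all tested probes were, in that order, 0.11, 0.34, 0.003, -0.002 and -0.05.

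miR-19b belongs to the miR-17 clusters, polycistronic miRNAs that promote growth. Its signals were 231 and 211 in klotho(-/-) lung, against 187 and 80 in wild-type lung. The genotypes were apart in signal and in rank, at 42 and 43 against 49 and 55. miR-19b rose by 0.32 ± 0.08 in log2 units (SE, n = 2 arrays per genotype, limma adjusted p = 0.0411). The call was kept under 6 of 17 alternatives and ended without klotho(-/-) Lung 1 (0.29), klotho(-/-) Lung 2 (0.32) or wild-type Lung 2 (0.21). Among the 11 tested members of the clusters and their paralogs, 1 was called higher and 0 lower, with a median of 0.10 and a range of -0.01 to 0.32. Over all tested probes 4.42% were called higher, so 1 call in a group of this size is no result about the clusters. miR-19a, which shares its targets in large part, had signals of 77 and 68 against 67 and 29 and a difference of 0.10 (adjusted p = 0.711). miR-92, from the same transcript, had a difference of 0.26 (adjusted p = 0.369). The median of the clusters was 0.34 without scaling, equal to the shift of all tested probes, and -0.01 with the summed signal as the scale.

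miR-30a-3p had signals of 94 and 73 in klotho(-/-) lung, against 65 and 34 in wild-type lung. The genotypes did not overlap, with ranks of 66 and 70 against 78 and 76. It rose by 0.22 ± 0.06 (SE, n = 2 arrays per genotype, limma adjusted p = 0.0411), the smallest difference among the 9 calls. It was called under 7 of 17 alternatives, and the call ended without klotho(-/-) Lung 1 (0.16) or wild-type Lung 1 (0.16). The guide arm of that hairpin, miR-30a-5p, had 1571 and 1373 in klotho(-/-) lung, against 1209 and 578 in wild-type lung. Its log2 difference of 0.13 ± 0.14 did not pass (adjusted p = 0.714). Of the 5 miR-30 guide members, 0 passed in either direction, with a median of 0.13 and values of 0.00 for miR-30e up to 0.20 for miR-30d. That median was 0.48 with median scaling and 0.77 without scaling, against 0.11 and 0.34 for all tested probes.

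miR-146 and miR-146b, which damp Toll-like receptor signalling through Irak1 and Traf6, were the pair of relatives on the lower side. miR-146 took 0.281% and 0.310% of the summed signal in klotho(-/-) lung, against 0.473% and 0.389% in wild-type lung. In unscaled signals the wild-type arrays lay on both sides of the klotho(-/-) arrays, and in shares and ranks they were apart, with ranks of 54 and 51 against 40 and 44. miR-146 fell by 0.35 ± 0.08 in log2 units (SE, n = 2 arrays per genotype, limma adjusted p = 0.0212). miR-146b took 0.248% and 0.237% in klotho(-/-) lung, against 0.417% and 0.320% in wild-type lung. Its ranks were 57 and 60 against 43 and 54, so that wild-type Lung 1 stood farther from the klotho(-/-) arrays than wild-type Lung 2 did. miR-146b fell by 0.35 ± 0.10 (SE, n = 2 arrays per genotype, limma adjusted p = 0.0444).

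Both stayed below 0 under every alternative, at -0.44 to -0.02 for miR-146 and -0.55 to -0.06 for miR-146b, and were called under 6 and 7 of 17. miR-146 lost its call without klotho(-/-) Lung 1 (-0.29), klotho(-/-) Lung 2 (-0.35) or wild-type Lung 1 (-0.31), and miR-146b without klotho(-/-) Lung 1 (-0.38), klotho(-/-) Lung 2 (-0.27) or wild-type Lung 1 (-0.18). The 2 arms of the leukocyte miR-142 had differences of the same sign beside them, and the leukocyte miR-150 did not. miR-142-3p, made in all leukocytes, took 0.247% and 0.175% of the summed signal in klotho(-/-) lung, against 0.388% and 0.289% in wild-type lung, and its other arm miR-142-5p had signals of 52 and 39 against 77 and 36. Neither passed, at log2 differences of -0.34 ± 0.24 and -0.31 ± 0.22 (adjusted p = 0.606 for either), and miR-150 of mature lymphocytes was at 0.04. Of the 3 leukocyte miRNAs tested of 4 on the chip, 0 were called higher and 0 lower, and the summed signal of the 4 was 247 and 172 in klotho(-/-) lung and 343 and 137 in wild-type lung. The part of the leukocytes in the miR-146 result was not tested.

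miR-103 and miR-181a were the other calls on the lower side, and both turned above 0 with median scaling and without scaling. Under these scalings all tested probes had medians of 0.11 and 0.34. miR-181a lay below both medians and miR-103 close to them. miR-103, which represses caveolin and affects insulin sensitivity, had signals of 339 and 342 in klotho(-/-) lung, against 355 and 184 in wild-type lung. The signals overlapped, and the ranks of 36 and 35 against 33 and 31 lay close together. The log2 difference was -0.37 ± 0.08 (SE, n = 2 arrays per genotype, limma adjusted p = 0.0212), but 0.09 with median scaling and 0.35 without scaling. It was -0.10 with cyclic loess, -0.115 with the summed signal and -0.22 with quantile normalization over all 20 arrays, without a call in any of these. The call was kept under 6 of 17 alternatives. The call ended without klotho(-/-) Lung 1 (-0.32), klotho(-/-) Lung 2 (-0.41) or wild-type Lung 2 (-0.26). miR-181a, which tunes T cell receptor signalling, had 395 and 357 in klotho(-/-) lung, against 422 and 197 in wild-type lung. Its ranks were 34 and 34 against 29 and 30. The log2 difference was -0.34 ± 0.09 (SE, n = 2 arrays per genotype, limma adjusted p = 0.0411), but 0.06 with median scaling and 0.32 without scaling, and the call was kept under 3 of 17 alternatives. It ended without any one of the 4 lung arrays, at -0.39 to -0.31. The neighbour miR-181b had 67 and 73 against 98 and 55 and did not pass at -0.29 ± 0.09 (adjusted p = 0.0736), while it stayed below 0 under every alternative and was past the threshold with median scaling (-0.23), cyclic loess (-0.30) and the summed signal (-0.37).

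**Figure D3:**
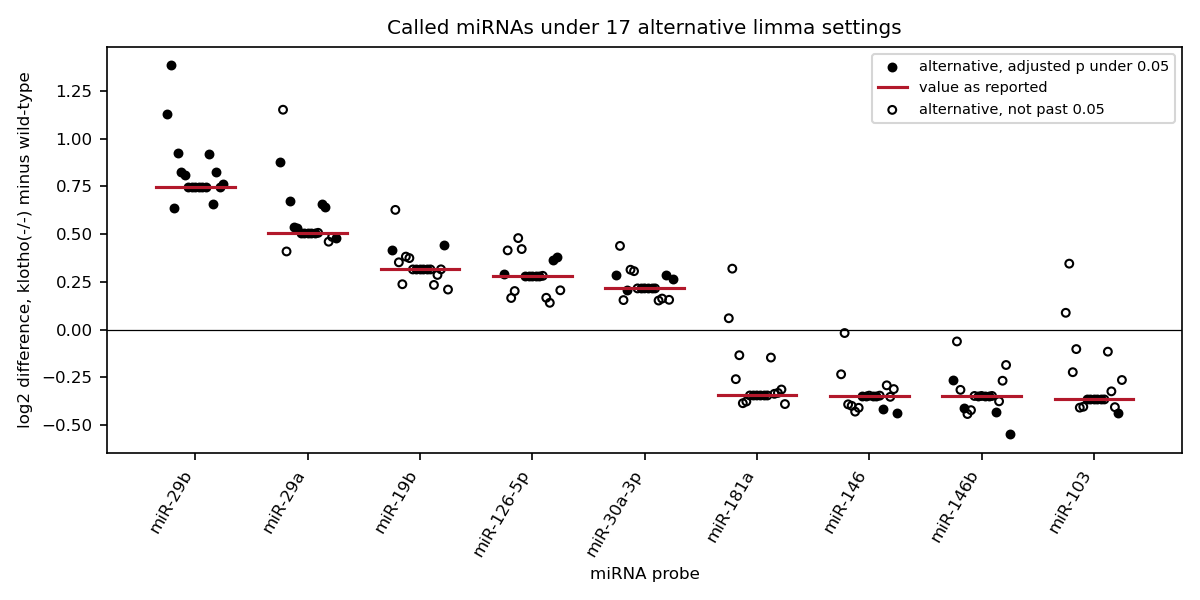
For each of the 9 called miRNAs the red line marks the log2 difference, klotho(-/-) minus wild-type, as reported, and the points its value under 17 alternative limma settings, filled where the adjusted p was under 0.05. miR-29b is filled throughout at 0.64 to 1.38, and miR-181a and miR-103 each have 2 points above 0.

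The let-7 family, which restrains growth genes such as Hmga2, had 0 of 9 members called in either direction and a median of -0.09. The nearest to the threshold were let-7i (904 and 784 in klotho(-/-) lung, against 917 and 496 in wild-type lung) at -0.31 ± 0.12 and let-7e (1.21% and 1.01% against 1.18% and 1.30% of the summed signal) at -0.35 ± 0.14, with adjusted p of 0.182 and 0.208 by limma. let-7g (877 and 706 against 834 and 437) was at -0.20 ± 0.09 (adjusted p = 0.222). With median scaling and without scaling these values turned above 0. The family median was then 0.06 and 0.34, against 0.11 and 0.34 for all tested probes. Other large families also had 0 members called in either direction. Over all 113 tested probes 7.96% were called, so a group of this size would hold few or no calls at that share. The count of 0 therefore says little about a family, and the same goes for the other small groups counted here. The miR-15/16 family, which restrains the cell cycle, had 6 tested members and a median of -0.05, and 0.53 without scaling. The clusters of miR-23a and miR-23b with miR-24 and miR-27 had 5 and a median of -0.09, and 0.44 without scaling. The miR-99, miR-100 and miR-125 group had 4 and a median of 0.08, above 0 under each scaling.

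None of the miRNAs that mark the main cell types of lung, apart from miR-126-5p, was called, where 7.96% of all tested probes were. Of the ciliated airway miRNAs, miR-34b had 235 and 237 in klotho(-/-) lung, against 209 and 118 in wild-type lung, and miR-34c 0.339% and 0.382% against 0.329% and 0.351% of the summed signal. Their differences were -0.00 and 0.07, with 0 of 2 called. The 4 members of the miR-200 family, of epithelium, had 0 called and a median of -0.08, with values of -0.12 for miR-200a up to 0.21 for miR-200c. That median was 0.09 with median scaling and 0.31 without scaling, against 0.11 and 0.34 for all tested probes. The smooth muscle miR-143 (1679 and 1826 in klotho(-/-) lung, against 1735 and 823 in wild-type lung) and miR-145 (1292 and 1289 against 1100 and 529) were at 0.02 and 0.13, with 0 of 2 called and a median of 0.07 that was 0.33 with median scaling and 0.62 without scaling. The fibroblast miRNAs miR-199a and miR-199a* had a median of -0.11 with 0 of 2 called, and the median was above 0 with median scaling (0.22), without scaling (0.47), and with cyclic loess or the summed signal (0.03 each). miR-21, which rises in fibrosis, had 999 and 522 in klotho(-/-) lung, against 690 and 249 in wild-type lung. The arrays of each genotype were far apart, and its difference of 0.15 ± 0.23 did not pass (adjusted p = 0.791).

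Muscle miRNAs varied with 1 wild-type array. miR-1, of heart and skeletal muscle, had signals of 104 and 91 in klotho(-/-) lung, against 235 and 65 in wild-type lung. wild-type Lung 1 was the high array, and the ranks were 63 and 63 against 41 and 60. The log2 difference was -0.48 ± 0.14 and did not pass (limma adjusted p = 0.0643). It was -0.20 without wild-type Lung 1 and -0.83, past the threshold, without wild-type Lung 2 (adjusted p = 9.10e-05, over a range of 9.10e-05 to 0.483 for the 17 alternatives). It was also past the threshold with cyclic loess (-0.62), the summed signal (-0.63) and a minimum signal of 30 (-0.48). miR-133a, miR-133b and miR-208, also of striated muscle, were at -0.33, -0.32 and -0.19, and miR-133b had 79 and 54 in klotho(-/-) lung, against 137 and 37 in wild-type lung. miR-133b was called as well without wild-type Lung 2 (-0.59) and was -0.08 without wild-type Lung 1. Of the 4 tested of 5 on the chip 0 were called, with a median of -0.33 and a summed signal of 304 and 247 in klotho(-/-) lung and 594 and 169 in wild-type lung. Heart, by comparison, had miR-1 signals of 2827 to 3832, and the part of muscle tissue in these lung values was not tested.

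**Figure D4:**
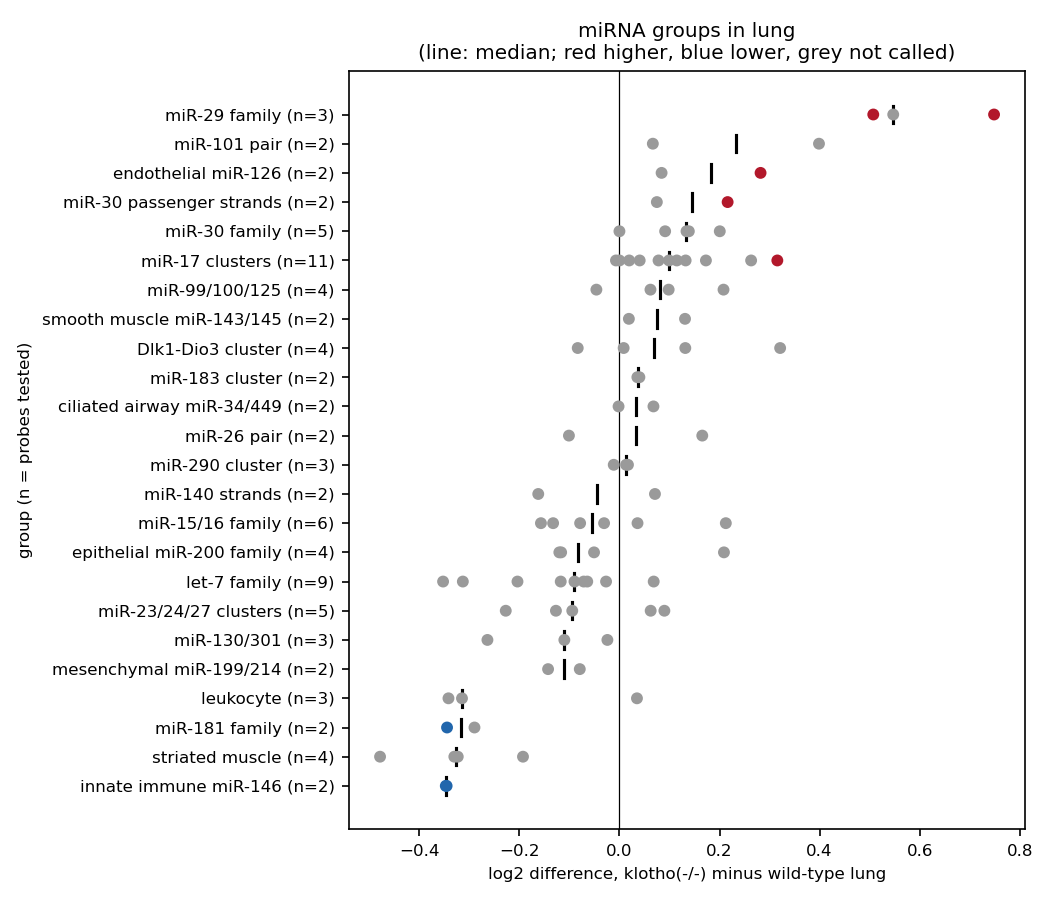
Each row is a group of related or co-expressed miRNAs with at least 2 tested members, each point a member's log2 difference, klotho(-/-) minus wild-type lung, and the black line the median of the group. The miR-29 family is the top row at a median of 0.55, and the miR-146 pair the lowest at -0.35.

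A fold rule like that of the study's methods asks for a ratio of signals, klotho(-/-) over wild-type, above 1.5 or under 0.5 in both pairs of arrays that carry the same number. It uses unscaled signals, and without scaling the signals of 37 tested probes (32.7%) lay higher in klotho(-/-) lung without overlap and 0 (0%) lower. Above 1.5 lay 6 probes (5.31%) and under 0.5 lay 0. The 6 were miR-29b (2.38 and 3.78), miR-29c (1.96 and 3.38), miR-29a (1.70 and 3.38), miR-296 (1.85 and 2.71), miR-101a (1.55 and 2.43) and miR-409 (1.91 and 1.58). In all but miR-409 the second ratio, against the dim wild-type Lung 2, was the larger. miR-101a, which restrains Ezh2, took 0.396% and 0.430% of the summed signal in klotho(-/-) lung, against 0.285% and 0.339% in wild-type lung, and was at 0.40 ± 0.13 after normalization (limma adjusted p = 0.0736), and past the threshold with median scaling (0.49) and with the spleen arrays left out (0.40). miR-296 took 0.215% and 0.245% in klotho(-/-) lung, against 0.130% and 0.173% in wild-type lung, and was at 0.45 ± 0.30 (adjusted p = 0.606). miR-409 had signals of 42 and 41 against 22 and 26 and was at 0.13 ± 0.26 (adjusted p = 0.870), and -0.05 without wild-type Lung 1. After quantile normalization of the signals 1 of the 6, miR-29b, was past the fold, and a fold of 2 also left miR-29b alone.

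To ask where lung differed from the rest of the series, the lung difference was set against the mean difference of liver, kidney, heart and spleen in the same fit. By the study's account, duplicate arrays were reproducible in every tissue but klotho(-/-) spleen. Those spleen arrays enter both this mean and the pooled spread. The contrast called 2 of 113 probes (1.77%), both with a higher value in lung, and 0 with a lower value, while 18 had an unadjusted p under 0.05. miR-19b was at 0.32 in lung and at -0.08 (liver), -0.07 (kidney), 0.04 (heart) and -0.29 (spleen), a contrast of 0.42 ± 0.09 (limma adjusted p = 0.0478). miR-126-5p was at 0.28 in lung and at 0.02, 0.00, -0.10 and -0.02 in these tissues, a contrast of 0.31 ± 0.07 (adjusted p = 0.0478). miR-19b had signals of 23 to 50 in liver, the lowest of the other tissues, and 83 to 186 in spleen, the highest. miR-126-5p had signals of 1 to 2 in liver and spleen and 2 to 5 in kidney, at or near the floor, and 9 to 17 in heart, close to the minimum of 10. These tissues could hardly show a difference, so its contrast largely restates the lung value and is no evidence of a difference between tissues. The 2 calls were both close to the threshold. Among other settings, both were lost with quantile normalization over all 20 arrays, with cyclic loess, with an offset of 16 and with the spleen arrays left out (0.35 for miR-19b and 0.31 for miR-126-5p), and median scaling gave 16 calls. Without klotho(-/-) Lung 1 (0.39 and 0.17) or wild-type Lung 2 (0.31 and 0.23) neither was called, and without klotho(-/-) Lung 2 miR-19b was not (0.42).

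For miR-29a and miR-29b this contrast was not called, at -0.00 ± 0.11 and 0.18 ± 0.10 (adjusted p = 0.994 and 0.329). miR-29b was at 0.39 (kidney) to 0.69 (liver) in the 4 other tissues, and miR-29a at 0.47 to 0.54 in these tissues. Next to the threshold came miR-106b of the miR-17 clusters (contrast 0.42, adjusted p = 0.0739) and miR-15b, which restrains the cell cycle (0.47, adjusted p = 0.144). In spleen they were at -0.86 and -0.64, against 0.13 and 0.21 in lung. The erythroid miR-144 took 0.394% and 0.434% in klotho(-/-) lung, against 0.320% and 0.412% in wild-type lung, with a lung difference of 0.19 and a contrast of 0.91 that did not pass (adjusted p = 0.181), beside -2.45 in spleen. miR-1 and let-7e had contrasts of -0.45 each (adjusted p = 0.190 each).

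**Figure D5:**
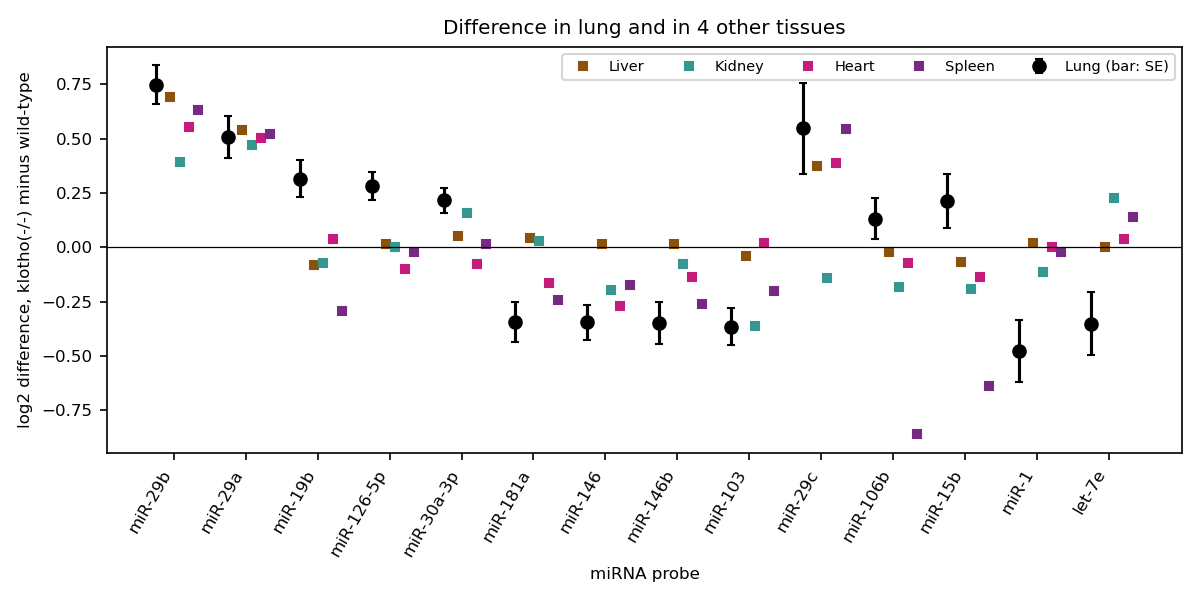
For each miRNA the black point gives the log2 difference, klotho(-/-) minus wild-type, in lung with its SE, and the squares the same difference in liver, kidney, heart and spleen. miR-29a and miR-29b lie above 0 in all 5 tissues, and for miR-19b the lung lies above the 4 other tissues, while miR-126-5p has signals of at most 17 outside lung.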

How the data were processed

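Per the labels, small RNA of each tissue carried 1 dye and was read on a DNA chip of probes for 200 mouse miRNAs. The authors deposited fluorescence intensity per probe and array without background subtraction, and a second table of intensity from which a constant per array had been subtracted (18.6 to 20.2 on the lung arrays) and which was rounded and floored. Neither was scaled between arrays. The number of arrays limits the precision. Signals are those of the second table. Log2 values came from the first, with normexp background correction (offset 50, which draws differences of dim probes toward 0) and quantile normalization within the 4 arrays of a tissue. A model with 10 groups was fitted to 20 arrays with limma 3.58.1 in R 4.3.3 (eBayes with trend), with 10 residual degrees of freedom, and p-values were adjusted by Benjamini-Hochberg over the 113 probes with a mean lung signal of at least 10. The other 87 probes, at most 18 on any lung array, were not tested. Named are the calls, the next 10 by p, the probes past the fold, up to 10 by p in the contrast with other tissues and members of the lists. The members and lists were chosen with earlier results of these data known. Steps were tested on simulated data. Alternatives covered the scaling, offset, filter, second table, blocks, the samples fitted, the methods' test and each lung array left out, where the remaining array was taken to vary as the other groups do. Of 17 probes looked up in the RefSeq miRNA table, 16 matched, and a sequence is the database's and not that of the probe. Figures were drawn with matplotlib 3.10.9.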

Additional observations from a re-analysis of the deposited data

Results flagged for a closer look

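In the comparison between tissues, a test of the lung difference against the mean difference of liver, kidney, heart and spleen passed for 2 miRNAs. Of these, miR-19b was above the minimum signal in all 5 tissues, but its signals in liver were 23 to 50, where the offset of 50 draws differences toward 0. Its call was lost with an offset of 16 and with the spleen arrays left out. For miR-19b the departure was 0.42 on the log2 scale (limma adjusted p = 0.0478), and it kept its sign under all 16 alternatives, at 0.31 to 0.57, while 4 of them kept the call. For miR-126-5p it was 0.31 (limma adjusted p = 0.0478), at 0.17 to 0.55 under the alternatives, of which 5 kept the call. Its signals were 24 to 87 in lung, but 1 to 2 in liver and spleen and 2 to 5 in kidney, at or near the floor, and 9 to 17 in heart, so its value largely restates the lung difference of 0.28 and is no evidence of a difference between tissues.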

How the results depend on the processing

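The 9 calls in lung became 18 with median scaling, 2 without scaling, 1 with quantile normalization over all 20 arrays, 2 with the second table, 2 with an offset of 16, 5 of 200 probes without the filter and 1 with the lung arrays fitted alone, and 3 to 8 without 1 lung array. The methods' t-test gave 8 unadjusted and 0 after Benjamini-Hochberg. The number of the array pairs no mice between genotypes by the labels (correlation of deviations 0.23, over 2 pairs). A fit with it as a replicate block kept 5 calls in lung and gave 4 in the contrast with other tissues. With a random block for genotype and number, as for mice shared between tissues, all 9 calls in lung and the 2 of that contrast were kept. The contrast with other tissues had 2 calls. There were 16 with median scaling, both among them, and 1 without scaling, which was neither of the 2. Without 1 lung array the contrast was 0.31 to 0.54 for miR-19b and 0.17 to 0.41 for miR-126-5p. It had 0 calls with quantile normalization over all 20 arrays, cyclic loess, the second table or an offset of 16. The same held with no filter, a minimum of 30, the spleen left out or the summed signal, a scaling chosen after seeing the data. Under these settings with 0 calls, 11 to 24 probes had an unadjusted p under 0.05 (limma). The fold rule gave 6 probes, and 1 with a fold of 2 or with normalized signals. Signs turned, with median scaling and without scaling, for miR-103 (0.089 and 0.35), miR-181a (0.060 and 0.32), let-7i (0.0051 and 0.30), let-7e (0.062 and 0.34) and let-7g (0.063 and 0.35), for miR-409 without wild-type Lung 1 (-0.048, and up to 0.37 without the other lung arrays) and for miR-106b with the summed signal (-0.017). With median scaling and without scaling, all tested probes had medians of 0.11 and 0.34. The cause of the turned signs was not tested. miR-29b kept its call under all 17 limma alternatives, but not by the methods' t-test after adjustment. The dim wild-type Lung 2 limits what low probes can show.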

Other observations

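Most probes of the imprinted and embryonic clusters were under the minimum signal in lung. Of the 28 probes for the miRNAs of the Dlk1-Dio3 cluster, which is expressed from the maternal chromosome, 4 reached the minimum signal. They included miR-409 of the fold rule, 0 were called, and their median was 0.07. Of these, miR-434-3p had 2 and 35 in klotho(-/-) lung, against 3 and 2 in wild-type lung, so that the value of klotho(-/-) Lung 2 stood alone. It was the 1 tested probe whose highest lung array was at least 3 times the next, and its difference of 0.32 ± 0.13 did not pass (limma adjusted p = 0.208). miR-186 was also high on that array, with 15 and 53 in klotho(-/-) lung, against 18 and 8 in wild-type lung, and its difference of 0.36 did not pass (adjusted p = 0.194) and was 0.02 without klotho(-/-) Lung 2. Without klotho(-/-) Lung 1, which leaves that array alone in its group, both miR-434-3p (0.62) and miR-186 (0.68) were past the threshold.

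Of the 6 probes for the Sfmbt2 cluster 0 reached the minimum signal. miR-297 had 4 and 3 in klotho(-/-) lung, against 5 and 18 in wild-type lung, miR-669a 5 and 4 against 8 and 14, and miR-669b 6 and 4 against 6 and 14. All 3 were highest on wild-type Lung 2, the array with the lowest summed signal. Of the 10 probes of the miR-290 cluster, of early embryos and stem cells, 3 were tested and 0 called, with a median of 0.01.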
